A study of Homo sapiens with 6 samples.

Results

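RNase P and RNase MRP are related RNA-protein enzymes, and the 10 genes described here encode their RNAs and proteins. RMRP is the RNA of RNase MRP and RPPH1 that of RNase P. The 8 protein genes are POP1, POP4, POP5, POP7, RPP25, RPP30, RPP38 and RPP40. Members were found by gene symbol among the 24000 entries of the deposited expression table, and each of the 10 had 1 entry. The gene set was chosen because RMRP and RPPH1 differed between these same treated and vehicle tumors, so the values of the members are a description of that difference and carry no test.

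The study asked which transcripts differ in PC-3 tumors after treatment with WCE, a herbal extract of Wedelia chinensis. The PC-3 line, androgen-independent human prostate carcinoma cells marked with luciferase, was the source of the tumors. These cells were implanted in the prostate of male athymic nude mice, hosts that lack T cells. RNA was sequenced from 3 tumors of mice given vehicle and 3 tumors of mice given WCE, all with a labelled treatment duration of 10 weeks. The labels give neither a dose nor the age of the mice. Libraries were made from total RNA with a stranded kit that selects polyadenylated RNA, and values are FPKM, fragments scaled to transcript length and to the mapped fragments of a library.

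Each enzyme is built around 1 catalytic RNA that RNA polymerase III makes, and most of the protein subunits are found in both. RNase P cuts the leader sequence off precursor tRNAs. RNase MRP cuts the long precursor of ribosomal RNA in the nucleolus, and inherited RMRP mutations cause cartilage-hair hypoplasia, a skeletal and immune disorder. Neither RNA normally ends in the long poly(A) tail of an mRNA, whereas the protein subunits come from ordinary mRNAs.

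Both RNAs are printed here from their 5′ ends because the oligo(dT) selection of these libraries bears on them in a way that it does not bear on the protein mRNAs. The sequences are the GENCODE transcripts on GRCh38, RMRP at chr9:35657751-35658018 on the minus strand and RPPH1 at chr14:20343075-20343407 on the minus strand. RMRP is shown whole, at 268 bases, and RPPH1 by its first 300 of 333 bases. Capitals mark the longest stretch that both share.
RMRP: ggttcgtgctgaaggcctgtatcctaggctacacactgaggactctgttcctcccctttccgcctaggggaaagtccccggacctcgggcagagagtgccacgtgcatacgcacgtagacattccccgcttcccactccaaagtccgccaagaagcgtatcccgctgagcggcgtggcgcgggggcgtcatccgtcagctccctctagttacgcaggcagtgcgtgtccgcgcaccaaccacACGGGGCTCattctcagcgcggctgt
RPPH1: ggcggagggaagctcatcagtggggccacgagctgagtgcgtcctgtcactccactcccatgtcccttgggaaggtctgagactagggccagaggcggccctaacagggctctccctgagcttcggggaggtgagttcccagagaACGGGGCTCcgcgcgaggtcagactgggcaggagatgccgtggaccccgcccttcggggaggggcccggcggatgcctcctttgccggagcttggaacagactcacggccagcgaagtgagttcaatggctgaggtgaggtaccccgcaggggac

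The shared stretch is 9 bases long, starts at base 243 of RMRP and base 146 of RPPH1, and is held by 0.0798% of the 7523 GENCODE transcripts of 250 to 350 bases. Both RNAs are rich in G and C, which make up 63.1% of RMRP and 64.6% of RPPH1. A makes up 17.5% of RMRP and 18.6% of RPPH1. The longest run of A is 3 bases in RMRP and 2 bases in RPPH1, whereas 74.4% of transcripts of that length range hold a run of at least 4. These counts describe the sequences and say nothing of tails added after transcription.

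A pair of libraries stood apart from the rest. Vehicle replicate 3 and WCE replicate 1 had a median absolute log2 difference of 0.028 over entries with a mean of at least 50 FPKM, whereas the 14 remaining tumor pairs ranged from 0.095 to 0.25. The relative depth read from the smallest steps in the values was 25.0% of that of vehicle replicate 3 in WCE replicate 1 and 64.8% to 85.2% in the other 4 tumors. Entries above 0 in WCE replicate 1 but at 0 in vehicle replicate 3 numbered 0. Against vehicle replicates 1 and 2 there were 546 and 372 such entries. Whether the near-identical pair came from separate tumors was not tested, and the group sizes count them as separate. The differences of the RNAs, of the proteins they are compared with and of the neighbouring genes, and the counts over lists, are therefore also given without this pair. Where the pair differed less than the other tumors did, leaving it out enlarges a group difference by arithmetic. A larger value without the pair is therefore no sign of a stronger effect. Keratins KRT8 and KRT18 were abundant in all 6 tumors, at 192 to 322 FPKM, and the prostate-specific antigen gene KLK3 was listed at 0 in all 6. Epithelial genes EPCAM and CDH1 were lower in WCE, with log2 differences of −0.73 and −0.47, whereas KRT8 at 0.05 and KRT18 at 0.10 had slightly higher means. The summed level of the 4 epithelial markers was 755 to 887 FPKM in vehicle and 703 to 754 FPKM in WCE. The summed level of 12 host markers was 70.5 to 103 FPKM in vehicle and 57.4 to 108 FPKM in WCE. CD68 and COL1A1 were the largest of these in every tumor. CD68 had 25.3 to 40.0 FPKM in vehicle and 38.7 to 43.9 FPKM in WCE. COL1A1 had 29.5 to 44.0 and 10.4 to 45.7 FPKM. The leukocyte markers PTPRC and CSF1R had means of 0.391 and 0.0712 FPKM in vehicle and 0.332 and 0.0631 FPKM in WCE. How far these entries read RNA of the mouse host was not tested. Single host markers differed more than the sum. KDR, an endothelial receptor, had 0.216, 0.247 and 0.529 FPKM in vehicle and 0.559, 1.59 and 5.12 FPKM in WCE. Its log2 difference was 1.14, and the groups separated only narrowly, between vehicle replicate 3 and WCE replicate 1. PECAM1 and CDH5, also endothelial, overlapped between groups, with means of 2.14 and 0.0453 FPKM in vehicle and 2.30 and 0.0236 FPKM in WCE. LUM, a stromal proteoglycan, had a log2 difference of −0.85 with overlap. KDR and LUM each had an unadjusted p under 0.05 and an adjusted p of 0.623 by limma. The part of these markers in the values of the members was not tested, and in bulk tumors fewer cells and less RNA per cell cannot be told apart.

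RMRP was measured at 43.5, 75.9 and 60.3 FPKM in vehicle replicates 1 to 3 and at 38.7, 11.6 and 18.8 FPKM in WCE replicates 1 to 3. Every vehicle tumor lay above every WCE tumor, but WCE replicate 1 was close to vehicle replicate 1 and well above the other 2 WCE tumors. The group means were 59.9 ± 16.2 FPKM in vehicle and 23.03 ± 14 FPKM in WCE (SD, n = 3 each), a level 2.60-fold lower in WCE. On the log2(FPKM + 1) scale the difference was −1.47 with a standard error of 0.40. Without the near-identical pair, the mean was 3.92-fold lower and the log2 difference was −1.89.

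RPPH1 was less abundant and less variable. Its levels were 12.6, 16.9 and 12.9 FPKM in the vehicle tumors and 10.1, 6.45 and 6.93 FPKM in the WCE tumors. Again the groups did not overlap, and WCE replicate 1 was the highest of the treated tumors. Mean levels were 14.1 ± 2.38 and 7.83 ± 1.99 FPKM (SD, n = 3 each), 1.81-fold lower in WCE, with a log2 difference of −0.79 and a standard error of 0.18. Without the pair the mean was 2.21-fold lower and the log2 difference was −1.02.

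**Figure D1:**
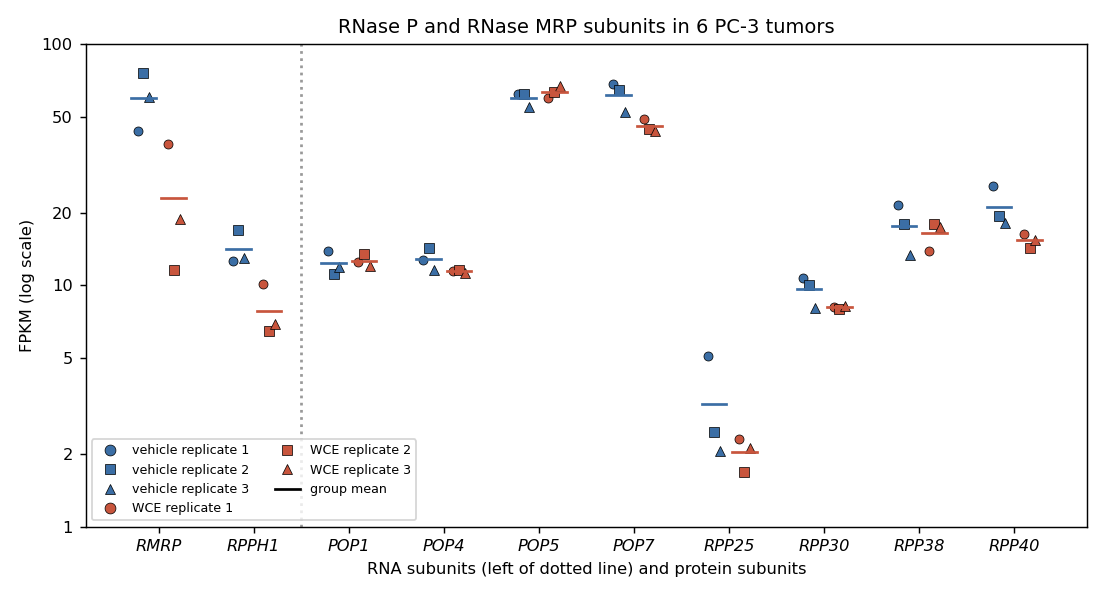
FPKM of each of the 10 genes in every tumor, on a log axis, with vehicle and WCE tumors as separate points and a bar at each group mean. The 2 RNAs show the widest gaps between group means, 2.60-fold for RMRP and 1.81-fold for RPPH1.

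Among the 13287 entries that passed a minimum mean of 0.5 FPKM, 22 had a log2 difference at or below that of RMRP and 60 one at or below that of RPPH1, each count including the RNA itself. RMRP also varied more within groups than most entries. Its within-group SD was 0.65 on the log2 scale, compared with 0.27 for RPPH1 and a median of 0.16 over all entries tested. The ratio of RMRP to RPPH1 was 3.45, 4.49 and 4.66 in the vehicle tumors and 3.82, 1.80 and 2.72 in the WCE tumors. The ratios of the groups overlapped through WCE replicate 1.

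Within the near-identical pair, the RNAs differed more than the proteins. RMRP in WCE replicate 1 was at 64.1% of its level in vehicle replicate 3, and RPPH1 was at 78.2%. None of the 8 protein genes differed between these libraries by more than 0.14 on the log2 scale, against −0.63 for RMRP and −0.33 for RPPH1. Over 6887 entries with a mean of at least 10 FPKM the median absolute difference between the pair was 0.039. Among them 23 differed by at least as much as RMRP and 43 as much as RPPH1, each count including the RNA itself. These are single libraries, so the values have no replicate check. The depth of WCE replicate 1 was 25.0% of that of vehicle replicate 3, and the fragments behind its RMRP and RPPH1 values are not known. The part of counting noise in these differences was not tested.

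The file gives no counts, so the reads behind each value could be judged only roughly. IFITM4P, an entry with a 342-base locus close to the length of the RPPH1 locus, was listed at 0.493, 0.427 and 0.459 FPKM in vehicle replicate 2, WCE replicate 2 and WCE replicate 3. If each of those values is taken to be 1 fragment, which is an assumption, RPPH1 rests on about 34.2, 15.1 and 15.1 fragments in these tumors. No such step could be read for RMRP, because it was the only entry above 0 with a locus of 258 to 278 bases.

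The protein subunits differed less between the groups. All 10 members passed the filter on low values. POP7 and RPP25 encode a pair of small proteins that bind together to one arm of either RNA. POP7 levels were 68.2, 64.2 and 52.3 FPKM in vehicle and 49.02, 44.50 and 43.45 FPKM in WCE, so the groups did not overlap. The mean was 1.35-fold lower in WCE, with a log2 difference of −0.42 and a standard error of 0.12. RPP25, the least abundant member, had 5.11, 2.48 and 2.06 FPKM in vehicle and 2.32, 1.69 and 2.12 FPKM in WCE. Its log2 difference was −0.41 with a standard error of 0.25, the groups overlapped, and vehicle replicate 1 alone stood high. Without that tumor the RPP25 difference was −0.11. Without the near-identical pair it was −0.67, and that of POP7 was −0.58.

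RPP40, a protein subunit found in both enzymes, was measured at 25.7, 19.4 and 18.1 FPKM in vehicle and 16.3, 14.3 and 15.5 FPKM in WCE. Its groups did not overlap, with a log2 difference of −0.42 and a standard error of 0.14. POP4, which binds the RNA and has an archaeal counterpart, had 12.7, 14.2 and 11.6 FPKM in vehicle and 11.5, 11.5 and 11.3 FPKM in WCE. POP4 separated only narrowly, between vehicle replicate 3 and WCE replicate 2, and its log2 difference was −0.15 with a standard error of 0.10. Without the pair the differences were −0.55 for RPP40 and −0.22 for POP4. In the 3 proteins whose groups did not overlap, vehicle replicate 3 was the lowest vehicle tumor.

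The other 4 proteins overlapped between groups. POP5 and RPP30, which form part of the conserved protein core, had mean levels of 59.7 ± 4.10 and 9.64 ± 1.39 FPKM in vehicle and 63.3 ± 3.60 and 8.10 ± 0.140 FPKM in WCE (SD, n = 3 each). RPP38, a protein that binds a kinked turn of RNA, had 17.6 ± 4.04 and 16.4 ± 2.24 FPKM. Its locus is shared by a second entry of the table, so that its value depends on how reads were divided. POP1, the largest protein subunit and a scaffold of both enzymes, had 12.3 ± 1.42 and 12.7 ± 0.723 FPKM. The log2 differences were 0.08 for POP5, −0.22 for RPP30, −0.08 for RPP38 and 0.04 for POP1. Without the pair they were 0.07, −0.33, −0.14 and 0.02 in the same order. Those of POP1 and RPP38 changed sign when single tumors were left out.

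**Figure D2:**
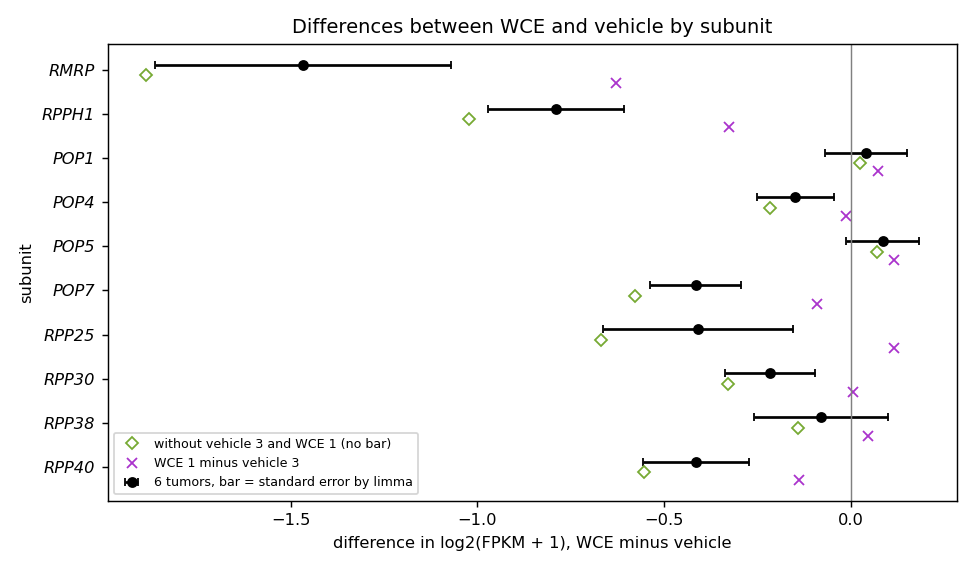
Difference in mean log2(FPKM + 1), WCE minus vehicle, for the 10 genes, as black points with bars of 1 standard error from limma, with open diamonds for the value without vehicle replicate 3 and WCE replicate 1 and crosses for WCE replicate 1 minus vehicle replicate 3. Over 6 tumors RMRP at −1.47 and RPPH1 at −0.79 lie left of the proteins, which run from −0.42 to 0.08.

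Counted together, the mean level in WCE was lower for 8 members and higher for 2, POP1 and POP5. The groups did not overlap for 5 of 10 members, all lower in WCE, and 6.4% of all entries tested were lower without overlap. Unadjusted p-values of limma's test were under 0.05 for 4 members that were lower (RMRP, RPPH1, POP7 and RPP40) and 0 that were higher, against 3.33% of all entries lower and 3.78% higher. After Benjamini-Hochberg adjustment over all entries no member was under 0.05 (0 of 10), and 0.00753% of the entries, 1 of 13287, was. The members were chosen from this contrast, so nothing is read from these counts. With the pair of similar libraries left out the unadjusted count was 5, RPP30 being added, and without WCE replicate 2 it was 3, RPP40 being lost.

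RNA and protein subunits were also compared inside each tumor, where a scaling factor common to all genes largely cancels. The mean log2(FPKM + 1) of the 8 proteins was taken from that of each RNA. For RMRP the remainder was 1.08, 2.09 and 1.96 in vehicle and 1.32, −0.32 and 0.31 in WCE, a difference of −1.27 between the group means. For RPPH1 it was −0.63, −0.014 and −0.17 in vehicle and −0.51, −1.08 and −1.01 in WCE, a difference of −0.59. On this scale the groups overlapped for both RNAs, since WCE replicate 1 lay above vehicle replicate 1. The median log2 difference of the proteins was −0.18, beside −0.0063 for all entries tested. Leaving out the pair gave −1.59 for RMRP and −0.72 for RPPH1 relative to the protein mean, and a protein median of −0.27.

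**Figure D3:**
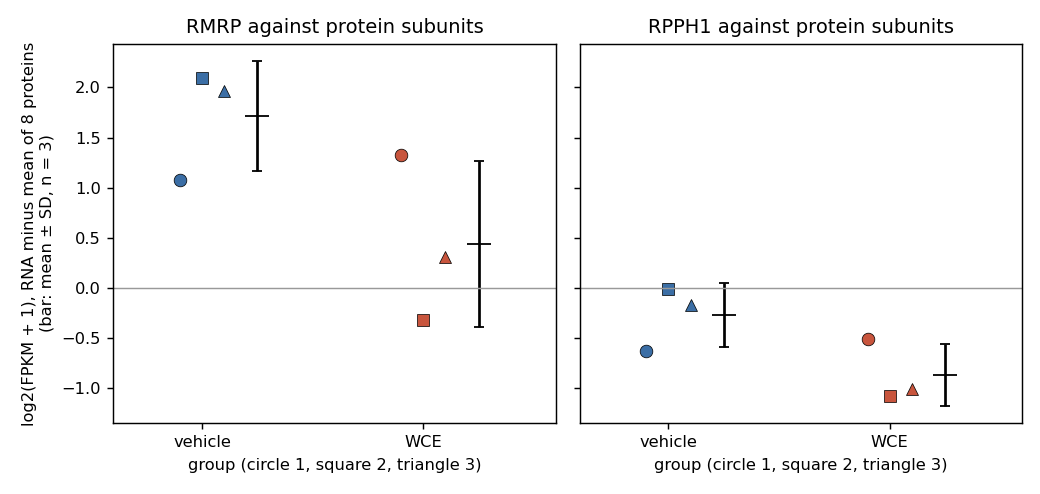
Log2(FPKM + 1) of RMRP and of RPPH1 minus the mean of the 8 protein subunits in the same tumor, 1 point per tumor, with bars for the mean ± SD of 3 tumors. WCE replicate 1 sits among the vehicle tumors for both RNAs, whereas WCE replicates 2 and 3 lie below all 3 of them.

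Single ratios show the same spread. RMRP was measured at 3.12, 6.78 and 5.07 times the FPKM of POP1 in vehicle and at 3.08, 0.864 and 1.57 times in WCE. The partners POP7 and RPP25 differed 13.3 to 25.9-fold in FPKM within vehicle tumors and 20.5 to 26.3-fold within WCE tumors, with overlapping ranges. Among proteins, the within-group SD ran from 0.091 for POP5 to 0.39 for RPP25, with a median of 0.15, close to the 0.16 of all entries.

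The order of mean FPKM in vehicle was POP7, RMRP and POP5 at 59.7 to 61.6, then RPP40, RPP38, RPPH1, POP4, POP1 and RPP30 at 9.64 to 21.0, and RPP25 at 3.22. Neighbours within the first 3 did not differ beyond their spread. In WCE, POP5 at 63.3 was followed by POP7 at 45.7 and RMRP at 23.03, and RPPH1 at 7.83 lay below POP1, POP4 and RPP30, the gap to RPP30 at 8.10 being smaller than the SD of RPPH1. FPKM scales by length, but values of RNAs about as short as a sequenced fragment depend on the length correction, so their place in this order is less certain than that of the mRNAs.

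Promoter windows of POP7 and RPP40 are shown because these were the protein genes with the lowest log2 differences among those whose groups did not overlap. Each spans 250 bases before to 50 bases after the RefSeq start on GRCh38.p14, POP7 at chr7:100705871-100706170 on the plus strand and RPP40 at chr6:5003988-5004287 on the minus strand. Capitals mark GGGCGG or its reverse complement CCGCCC, the GC box bound by Sp-family factors.
POP7: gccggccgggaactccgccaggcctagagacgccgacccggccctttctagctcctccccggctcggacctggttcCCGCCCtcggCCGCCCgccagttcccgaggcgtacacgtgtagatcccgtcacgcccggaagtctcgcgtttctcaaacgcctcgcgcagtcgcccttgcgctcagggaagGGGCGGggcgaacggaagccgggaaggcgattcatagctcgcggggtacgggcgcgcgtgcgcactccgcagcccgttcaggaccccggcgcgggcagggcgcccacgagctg
RPP40: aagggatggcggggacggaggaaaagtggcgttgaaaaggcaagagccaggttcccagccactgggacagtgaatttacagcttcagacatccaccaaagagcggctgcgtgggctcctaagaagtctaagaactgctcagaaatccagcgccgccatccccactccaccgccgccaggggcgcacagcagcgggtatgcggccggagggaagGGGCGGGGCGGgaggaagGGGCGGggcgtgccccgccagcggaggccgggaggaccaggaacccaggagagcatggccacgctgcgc

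Both windows hold 3 such matches, counted on both strands with overlaps allowed, and 15.8% of 35116 RefSeq windows of that length hold at least 3. Of the 7 protein-gene windows searched, those of POP5 and RPP25 hold 2, that of RPP30 holds 1, and those of POP4 and RPP38 hold 0. At least 1 match is present in 45.0% of all windows. A match is a description of the letters and not of bound factors.

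RMRP and RPPH1 each lie close to a protein-coding gene. CCDC107, 271 bases from RMRP in the listed loci, had 5.47, 5.19 and 6.24 FPKM in vehicle and 4.95, 6.78 and 7.08 FPKM in WCE. Its groups overlapped, with a log2 difference of 0.12 and an unadjusted p of 0.423 by limma. Without the near-identical pair the CCDC107 difference was 0.33, with an unadjusted p of 0.038 and an adjusted p of 0.245 by limma. PARP2, a DNA repair enzyme gene 202 bases from RPPH1, had 28.7, 28.8 and 27.5 FPKM in vehicle and 24.9, 24.3 and 23.9 FPKM in WCE. The PARP2 groups did not overlap, but the log2 difference was only −0.21 (standard error 0.084), with an unadjusted p of 0.040 and an adjusted p of 0.623 by limma. Without the pair it was −0.24, with an unadjusted p of 0.057 by limma.

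Genes that act beside these enzymes were read from lists of related genes. The 4 other proteins of the holoenzymes, RPP14, RPP21, RPP25L and NEPRO, had a median log2 difference of −0.07, with none under an unadjusted p of 0.05. RPP25L, a close relative of RPP25, had −0.25 and RPP14 −0.09. RPP21 is joined in the table with the neighbouring TRIM39, so its value, 84.5 FPKM in vehicle and 84.8 in WCE, is not its own. In mitochondria a protein-only RNase P takes the place of the RNA enzyme. Its 3 genes had a median of −0.09, with TRMT10C, the methyltransferase subunit, at −0.23 and PRORP, the nuclease, at −0.09, and none was under 0.05.

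For 16 tRNA-processing genes the mean was lower in WCE for 13 and higher for 3, with a median of −0.14 and none under an unadjusted p of 0.05. ELAC2, which cuts the trailer from the other end of precursor tRNAs, had 0.06, and XPOT, the tRNA exporter, had 0.14. The lowest values were −0.31 for C2orf49, a member of the tRNA ligase complex, and −0.28 for TSEN54, of the splicing endonuclease. Of 24 genes for precursor ribosomal RNA processing, 2 were lower at an unadjusted p under 0.05 and 0 higher, beside 3.33% and 3.78% of all entries, with a median of −0.10. Leaving out single tumors gave 0 (vehicle 1, vehicle 2 or WCE 3), 1 (WCE 2), 3 (vehicle 3) or 4 (WCE 1), and the count was 1 with a pseudocount of 5, no filter, upper-quartile scaling or no trend. The pair was GAR1, of the box H/ACA particles, at −0.38 and BYSL, a factor of small-subunit assembly, at −0.39. EXOSC10, an exosome nuclease, had 0.15 and LAS1L, of an endonuclease complex, had 0.06.

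Subunits and factors of RNA polymerase III, which transcribes RMRP and RPPH1, were spread around 0. Of 30 such genes 16 were higher and 14 lower, the median was 0.0049, and none was under an unadjusted p of 0.05. GTF3C2 at 0.18 and POU2F1 at 0.15 were the highest, and GTF3A and POLR3F, both at −0.30, the lowest. No gene of any of these lists was under 0.05 after adjustment. Without vehicle replicate 3 and WCE replicate 1 the number lower at an unadjusted p under 0.05 was 3 for tRNA processing, 3 for ribosomal RNA processing and 3 for RNA polymerase III, and 0 were higher. In that setting 9.63% of all 13255 entries tested were lower and 8.92% higher. Counts of 3 among 24 or 30 genes lay near the background. The count of 3 among the 16 tRNA-processing genes lay above it, and the excess was not tested.

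**Figure D4:**
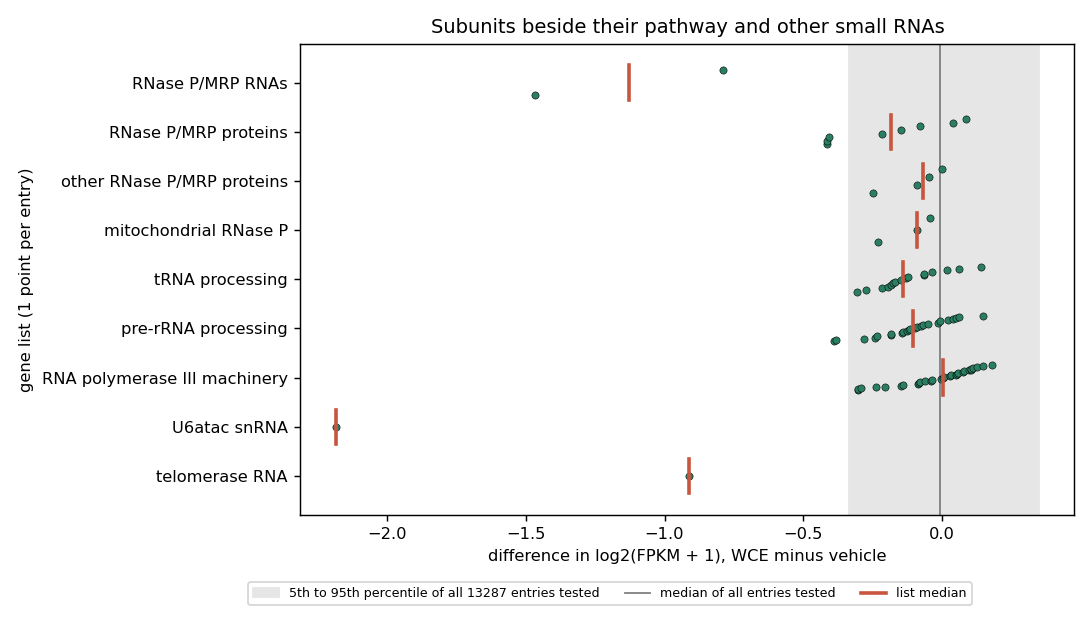
Difference in mean log2(FPKM + 1), WCE minus vehicle, for each tested entry of the subunits and related lists, with a bar at each list median and a grey band from −0.34 to 0.35 that holds the 5th to 95th percentile of all 13287 entries. The U6atac and telomerase rows hold 1 RNA each, and the BCYRN1 entry is left out.

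Few other RNAs without a poly(A) tail could be read. Of 20 RNA polymerase III transcripts looked for, 8 had entries and 6 of these, RNY4, RNY5, VTRNA1-1, VTRNA1-2, VTRNA1-3 and VTRNA2-1, were listed at 0 in all 6 tumors. RNU6ATAC, a minor spliceosome RNA, was listed at 180, 380 and 57.2 FPKM in vehicle and 0, 197 and 215 FPKM in WCE, so neither group was higher throughout. The 8th, BCYRN1, was lower at an unadjusted p under 0.05 but has a listed locus on chromosome X, whereas GENCODE places the gene on chromosome 2, so its values are not described. Of 17 other RNAs without tails, 6 had entries and only TERC, the telomerase RNA, was above 0. The entries of RNY5, RNU5E-1, RNU5F-1 and RNU4ATAC are listed over loci far longer than such RNAs. That of RNY4 is listed over a locus shorter than such an RNA. A 0 at any of these entries may not measure the RNA. TERC had 5.61, 2.42 and 0.595 FPKM in vehicle and 0.796, 1.41 and 0.252 FPKM in WCE. Its groups overlapped and its log2 difference was −0.91 with a standard error of 0.49 and an unadjusted p of 0.101 by limma. Without the pair it was −1.45, with an unadjusted p of 0.018 and an adjusted p of 0.204 by limma. The values without the pair for TERC and the neighbouring genes were added after seeing the data. RMRP and RPPH1 were thus among the few entries of this kind with a value above 0 in every tumor. How much untailed RNA each library carried was not tested.

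Entries with the pattern most like each RNA were found from the 6 centred log2(FPKM + 1) values, without regard to group. For RMRP, the smallest root-mean-square differences were those of CSF2 at 0.32, FLJ22447 at 0.34, CST6 at 0.35, FEZ1 at 0.38 and THBS1 at 0.39, against 0.91 for the spread of RMRP itself. CSF2, a myeloid growth factor, had 7.80, 12.9 and 12.2 FPKM in vehicle and 10.7, 3.34 and 3.96 FPKM in WCE. THBS1, the matrix protein thrombospondin, had 178, 218 and 229 FPKM in vehicle and 232, 79.8 and 89.5 FPKM in WCE. All 5 were high in the vehicle tumors and WCE replicate 1 and low in WCE replicates 2 and 3.

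RPPH1 was matched more closely. PF4 had a root-mean-square difference of 0.069, CLEC7A 0.11, HRASLS2 0.14 and TMEM30B 0.15, against a spread of 0.45 for RPPH1. PF4, a platelet chemokine, had 1.97, 2.67 and 1.97 FPKM in vehicle and 1.44, 0.636 and 0.908 FPKM in WCE. Vehicle replicate 2 was the highest tumor for these 4 and for RPPH1. The 2 sets of entries named share no gene, and with 6 tumors the likeness is a description only.

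**Figure D5:**
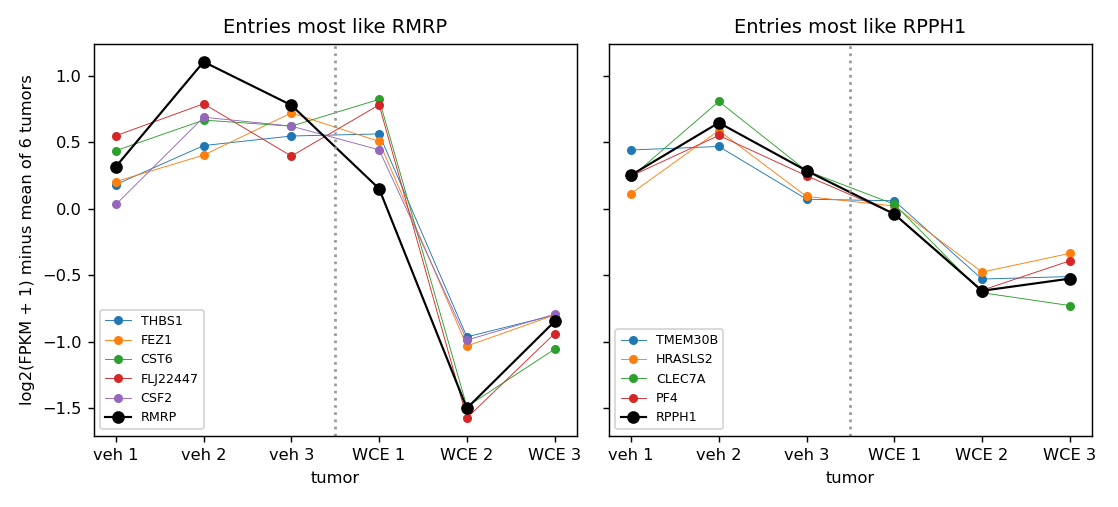
Centred log2(FPKM + 1) in the 6 tumors for RMRP with its 5 nearest entries and for RPPH1 with 4 of its 5 nearest entries, where thin lines join the values of 1 entry and carry no order. WCE replicates 2 and 3 are the lowest tumors for both RNAs.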

How the data were processed

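Values were the FPKM that the authors deposited for 24000 entries in 6 PC-3 tumors, 3 given vehicle and 3 given WCE. The submitters' processing notes name TopHat2 2.0.13, Cufflinks, hg19 and mm10 without saying how the builds were used, and the table names none. FPKM divides by an effective length, so RNAs about as short as a fragment depend on the fragment lengths. Entries with a mean of at least 0.5 FPKM (13287) were tested on log2(FPKM + 1), on which fold changes of low entries are understated, with limma 3.58.1 in R 4.3.3 (mean-variance trend, two-sided, Benjamini-Hochberg, threshold 0.05). The fit was tested on simulated data. Other steps used Python 3.11.15. The file gives no counts, so the depth of each value is unknown and only relative depth was read.

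Members and lists were chosen with earlier results of these data known. Named genes were the members, the neighbours of RMRP and RPPH1, the 2 highest and 2 lowest entries of each pathway list, and the 5 entries nearest to each RNA, of which 1 for RPPH1 is not reported here. The epithelial and host markers and RNAs listed at 0 were named besides. The labels do not say whether each tumor came from its own mouse, so p-values measure the spread between these samples. Reference sequences came from GENCODE v29 and RefSeq. Alternatives changed the pseudocount, the filter, the scaling, the trend, the block and the tumors used.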

Additional observations from a re-analysis of the deposited data

How the results depend on the processing

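RMRP and RPPH1 were lower in WCE under all 16 alternatives, with log2 differences of −1.91 to −1.08 and −0.97 to −0.66 when 1 tumor was left out and −1.89 to −1.30 and −1.02 to −0.58 under the others. Changes of the filter, the trend or the block cannot alter these estimates. Both RNAs were chosen from this contrast, so their direction in it is no check. The protein median stayed between −0.29 and −0.12, and the differences from the protein mean between −1.71 and −0.89 for RMRP and between −0.77 and −0.44 for RPPH1. POP1 ran from −0.023 to 0.12 and RPP38 from −0.25 to 0.067 when 1 tumor was left out. Over all entries, 944 were at an unadjusted p under 0.05 in limma, and 228 to 2035 when 1 tumor was left out: 438 without vehicle replicate 1, 378 without vehicle replicate 2, 1769 without vehicle replicate 3, 2035 without WCE replicate 1, 244 without WCE replicate 2 and 228 without WCE replicate 3. Without both vehicle replicate 3 and WCE replicate 1 it was 2459, in a setting that enlarges group differences wherever these libraries differed little. The count at an adjusted p under 0.05 was 1, 0 with no filter on low values, 1 to 7 when 1 tumor was left out and 5 without both, and no member was among them. The cause was not tested. With the replicate number as a block, 1049 entries were under 0.05 unadjusted and the same 4 members. Same-numbered tumors had a mean correlation of −0.058 (−0.24 to 0.16), beside 0.028 (−0.33 to 0.36) for tumors of different number. They are not correlations of the levels themselves, which were similar in all tumors. Over entries with a mean of at least 50 FPKM no tumor pair had a median absolute log2 difference above 0.25. With 3 same-numbered pairs, and with the near-identical pair among the tumors, these correlations cannot decide whether the numbers are a pairing. Scaling moved the median of all entries by less than 0.1.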
